A study of Sus scrofa with 13 samples.

Results

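The interferon-response gene families were followed in skeletal muscle of pigs with and without dystrophin, across 42 genes and 13 arrays, 1 per animal. Members were all genes whose symbol began with IFI and a digit, IFIT, IFIH, ISG, OAS, IRF, GBP, STAT, HERC or PARP, or equalled MX1, MX2, RSAD2, USP18, DDX58, DHX58, XAF1, CMPK2 or EIF2AK2. They were 42 of the 10283 genes that the annotation of the array named by a single symbol, and 48 of its 21893 probe sets. The 6 genes with several probe sets (HERC3, MX1, PARP11, PARP16, STAT3 and STAT6) were represented by the one with the highest mean over all arrays. No member was removed by a filter on low levels. Family members under the rule's names without a singly named probe set, among them ISG15, DDX58 and XAF1, were not analysed here.

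The tissue was biceps femoris, a thigh muscle, of German Landrace pigs. The groups were dystrophin knockout (DMD KO) animals at 3 months of age (n = 3), wild-type (WT) animals at 3 months (n = 3), DMD KO animals at 2 days (n = 4) and WT animals at 2 days (n = 3). In the knockout allele exon 52 of the dystrophin gene DMD was deleted, and the animals came from nuclear transfer out of kidney cells that carried it. DMD KO muscle was taken right after the animals had died, and WT animals of matching age were euthanised. Genotype, cloning and mode of death thus cannot be told apart in the comparisons between genotypes. The labels call the samples biological replicates and name neither litters nor array batches.

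Interferons are secreted by cells that sense foreign or misplaced nucleic acid. They bind receptors that activate the kinases JAK1 and TYK2, which in turn activate transcription factors, STAT2 among them. Together with IRF9, STAT2 helps to switch on a large set of genes in almost any cell type, muscle fibres included, and the products sense RNA, block translation, trap viral particles or damp the response again. Type II interferon favours the GBP genes, IRF1 and genes of antigen presentation. Not every gene whose symbol matches these families answers to interferon. Of the members, 27 belong to the classically induced genes (here called the induced set), although IFITM5, a protein of bone-forming cells, entered it only through the first letters of its name. The other 15 share a family name and were placed outside the induced set: STAT3, STAT5A and STAT6, IRF2, IRF2BP1 and IRF5, HERC1, HERC2 and HERC3, PARP2, PARP8, PARP16 and PARPBP, ISG12(A) and ISG20L2. ISG12(A) is a relative of the interferon-induced IFI27, and stood outside because the set was listed by symbol.

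All values below are deposited levels on a log2 scale, so that a difference of 1 is a doubling. Array medians lay between 7.32 and 7.38. The levels of ACTA1, MYH1 and MYH7, which encode skeletal actin and myosin heavy chains, ran from 10.23 to 12.85, so markers of the labelled tissue were present on every array. DMD itself read 11.84, 11.65 and 11.53 in DMD KO and 11.87, 11.81 and 12.01 in WT at 3 months, and 12.08, 12.30, 12.11 and 12.21 in DMD KO and 12.38, 12.29 and 11.53 in WT at 2 days, on its brighter probe set. The sources used here do not say where that probe set lies relative to exon 52, so these levels check nothing. WT replicate 3 at 2 days stood apart from the rest of the arrays, with a mean correlation of 0.918 to them, where the others had 0.943 to 0.964. Called genotype differences at 2 days and the highest uncalled ones are given with and without it, whereas levels, orders and spreads within groups include it.

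The most visible feature of the induced set was not a difference between groups but a difference between animals of 1 group. IFIT1, which binds viral RNA that lacks the methylation of host caps, read 7.91, 8.58 and 7.74 in DMD KO at 3 months and 8.78, 9.98 and 7.59 in WT at 3 months. At 2 days its level was 8.25, 9.70, 8.13 and 10.09 in DMD KO and 6.74, 7.48 and 8.63 in WT. At 2 days DMD KO replicates 2 and 4 were high and replicates 1 and 3 lower, and a single WT animal, replicate 3, stood above the other two. IFIT3, the partner that stabilises IFIT1 on RNA, read 7.71, 8.22 and 7.71 in DMD KO at 3 months and 8.26, 9.05 and 6.96 in WT at 3 months. The levels at 2 days were 7.83, 9.23, 6.90 and 9.46 in DMD KO and 6.49, 7.22 and 8.43 in WT. The same animals were high in each group. HERC5, in humans the ligase that attaches the ubiquitin-like protein ISG15 to newly made proteins, read 8.48, 9.12 and 8.37 in DMD KO at 3 months and 8.82, 10.31 and 7.14 in WT at 3 months. Animals of 2 days had 7.59, 9.85, 7.19 and 10.14 in DMD KO and 6.15, 7.04 and 8.78 in WT. Its WT levels at 3 months spanned more than 3 log2 units from replicate 3 to replicate 2, and its DMD KO levels at that age less than 1.

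**Figure D1:**
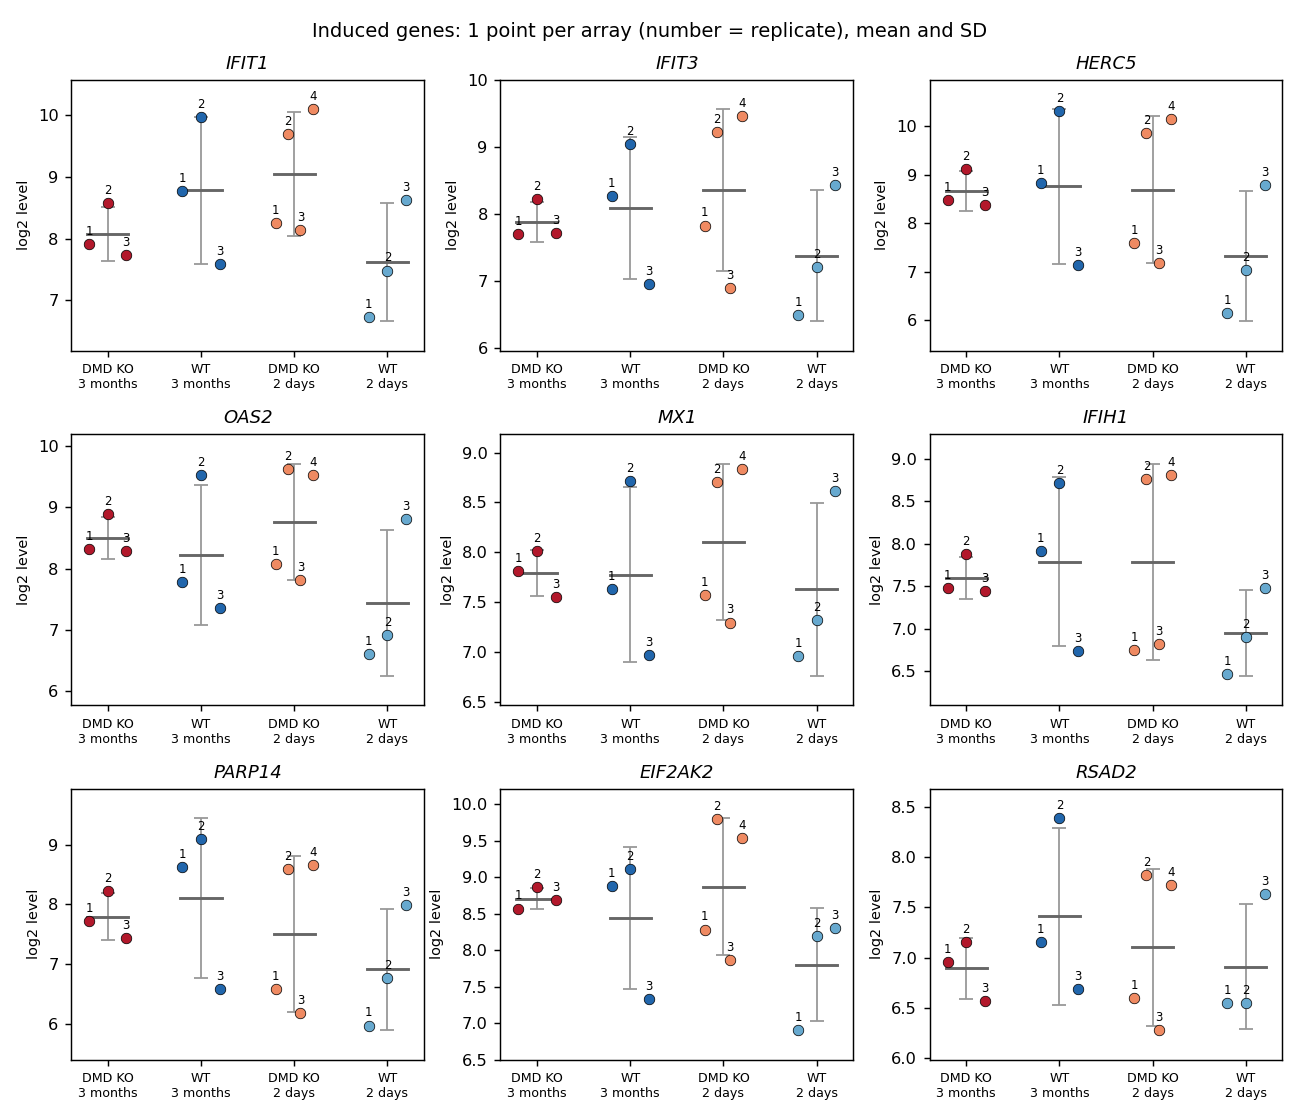
Deposited log2 levels (vertical axis) of 9 members of the induced set on each array, by group (horizontal axis), 1 point per animal with the group mean and SD. DMD KO at 2 days falls into 2 high and 2 lower animals in each panel, and HERC5 reaches 10.31 in 1 WT animal at 3 months against 7.14 in another.

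The antiviral effectors repeated the order of animals. OAS2, an enzyme that makes the oligoadenylates by which RNase L is switched on, read 8.32, 8.89 and 8.28 in DMD KO at 3 months and 7.78, 9.52 and 7.36 in WT at 3 months. In newborns of 2 days it read 8.08, 9.62, 7.82 and 9.53 in DMD KO and 6.61, 6.92 and 8.80 in WT. MX1, a dynamin-like GTPase that traps viral nucleoprotein, read 7.81, 8.02 and 7.55 in DMD KO at 3 months, 7.64, 8.72 and 6.97 in WT at 3 months, 7.57, 8.71, 7.29 and 8.84 in DMD KO at 2 days, and 6.96, 7.32 and 8.61 in WT at 2 days. WT replicate 3 at 2 days, at 8.61, came close to the high DMD KO animals. EIF2AK2, the kinase PKR that halts translation on meeting double-stranded RNA, read 8.57, 8.87 and 8.69 in DMD KO at 3 months and 8.89, 9.12 and 7.33 in WT at 3 months. Its 2-day levels were 8.28, 9.80, 7.87 and 9.53 in DMD KO and 6.91, 8.19 and 8.31 in WT. In all 3 genes DMD KO replicates 2 and 4 exceeded replicates 1 and 3 at 2 days, WT replicate 3 was the highest WT animal at 2 days, and WT replicate 2 the highest at 3 months. RSAD2, which makes a chain-terminating nucleotide that stops viral polymerases, read 6.96, 7.16 and 6.57 in DMD KO at 3 months, 7.16, 8.38 and 6.69 in WT at 3 months, 6.59, 7.82, 6.28 and 7.72 in DMD KO at 2 days, and 6.55, 6.55 and 7.63 in WT at 2 days. PARP14, an ADP-ribosyltransferase induced by interferon, read 7.73, 8.22 and 7.44 in DMD KO at 3 months and 8.63, 9.10 and 6.58 in WT at 3 months. At 2 days its level was 6.58, 8.59, 6.18 and 8.67 in DMD KO and 5.98, 6.78 and 7.99 in WT. Both again followed that order, and for PARP14 the DMD KO animals at 3 months lay within the range of the WT animals of that age. IFIH1, the sensor of long double-stranded RNA also called MDA5, read 7.47, 7.88 and 7.44 in DMD KO at 3 months, 7.91, 8.71 and 6.74 in WT at 3 months, 6.75, 8.76, 6.82 and 8.80 in DMD KO at 2 days, and 6.47, 6.91 and 7.47 in WT at 2 days.

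This order of animals was counted over the families after it had been seen in the values, so the counts describe it and test nothing. DMD KO replicates 2 and 4 were both above replicates 1 and 3 at 2 days in 23 of the 27 induced members (85.2%), and in 2 of the 15 others (13.3%), IRF2 and PARP2. Over all probe sets the share was 17%. WT replicate 3 was the highest of the WT animals at 2 days in 23 of 27 induced members, against 43.6% of all probe sets. WT replicate 2 was the highest at 3 months in 22 of 27, against 38.7%, and WT replicate 3 the lowest in 21 of 27, against 30.4%. All of the first 3 orders together held in 19 of 27 induced members (70.4%), in 0 of the 15 others and in 2.37% of all probe sets. The 8 induced members outside these 19 were DHX58, GBP1, IFITM1, IFITM5, IRF1, OASL, PARP11 and USP18. OASL and DHX58 hardly varied within groups, with a within-group SD of 0.0991 and 0.101.

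**Figure D2:**
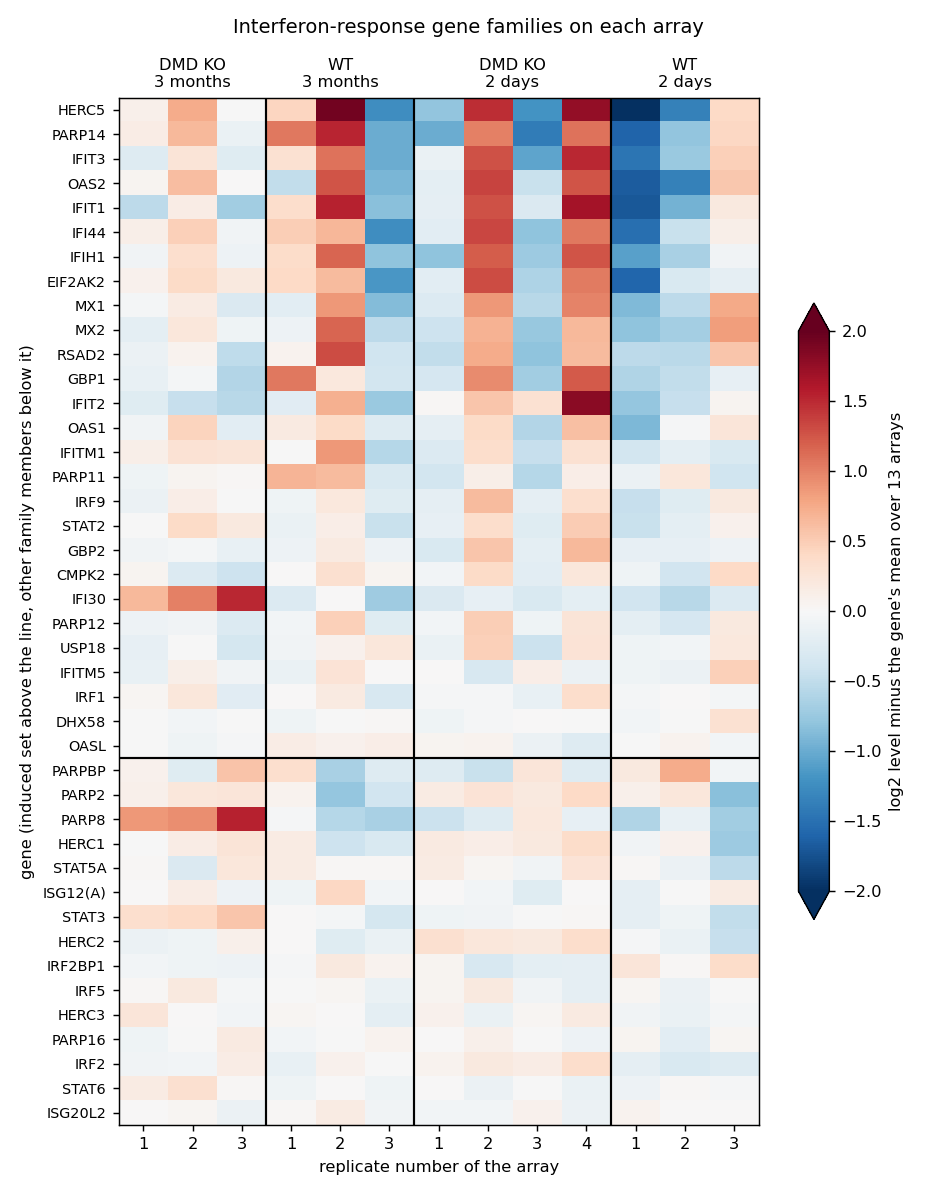
Heat map of the 42 members (rows, induced set above the other 15) on the 13 arrays (columns, by group), coloured by the deposited log2 level minus the gene's mean over all arrays. DMD KO replicates 2 and 4 at 2 days, WT replicate 3 at 2 days and WT replicate 2 at 3 months are high through most of the induced set and not through the rest.

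The mean level over the 27 induced members put a number on each animal. It was 7.52, 7.77 and 7.46 in DMD KO at 3 months, 7.69, 8.22 and 7.05 in WT at 3 months, 7.30, 8.20, 7.10 and 8.26 in DMD KO at 2 days, and 6.83, 7.14 and 7.74 in WT at 2 days. The 2 high DMD KO animals at 2 days and the highest WT animal at 3 months were thus alike on this scale, and the ranges of all 4 groups overlapped in part. Over the other 15 members the mean level ran only between 7.47 and 7.94 on the 13 arrays. In bulk muscle, fewer cells of a type and less RNA per cell cannot be told apart, so these levels do not say how many cells responded.

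The spread within groups separated the induced set from the rest of the families. The pooled within-group SD had a median of 0.475 over the induced set, against 0.143 over the other 15 members and 0.170 over all probe sets. It lay above the 95th percentile of all probe sets (0.420) in 15 of 27 induced members and in 0 of the 15 others, and above the 99th percentile in 13 of 27. HERC5 had an SD of 1.33, which placed it at percentile 99.99 of all probe sets, followed by PARP14 at 1.11, IFIT3 at 0.983, OAS2 at 0.965 and IFIT1 at 0.946. IFI44, an induced gene of little settled function, had 0.876, and GBP1, a GTPase that coats the vacuoles of intracellular pathogens, 0.665. The members were not chosen by their spread, but genes induced together do not vary independently, so these counts were not tested.

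**Figure D3:**
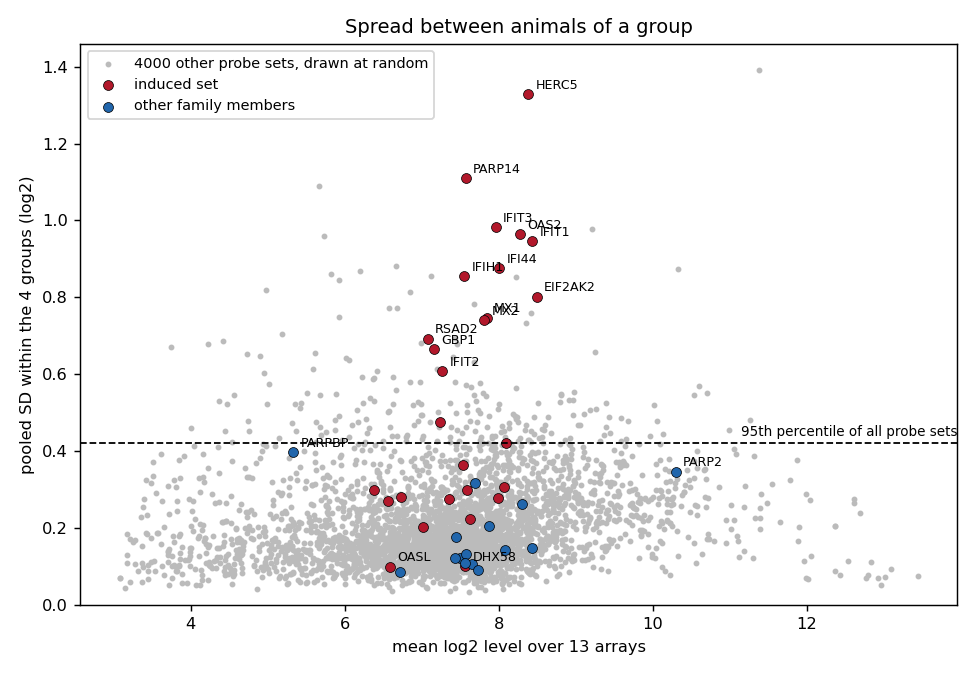
Pooled within-group SD (vertical axis, log2 units) against the mean log2 level over 13 arrays (horizontal axis) for the induced members, the other members and 4000 randomly drawn other probe sets in grey, with the 95th percentile of all probe sets (0.420) dashed. Of the induced members 15 of 27 lie above the line, HERC5 highest at 1.33, and none of the other 15 does.

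The median spread of the induced members was lowest within DMD KO at 3 months. The median SD was 0.226 within DMD KO at 3 months, within WT at 3 months 0.715, within DMD KO at 2 days 0.541 and within WT at 2 days 0.391. Over all probe sets these medians were 0.140, 0.158, 0.123 and 0.186, so WT at 3 months was not the most variable group as a whole. The range within a group exceeded 1 log2 unit for 0 induced members in DMD KO at 3 months, 14 in WT at 3 months, 14 in DMD KO at 2 days and 12 in WT at 2 days, against 2.28%, 3.2%, 1.92% and 8.19% of all probe sets. DMD KO at 3 months had the smallest range of the 4 groups in 19 of 27 induced members, against 30.6% of all probe sets. Among its 3 animals replicate 2 was the highest in 22 of 27 induced members, against 27.6% of all probe sets. With 3 or 4 animals a group, differences in spread between the groups were not tested.

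Several induced members lie side by side in the pig genome. In the RefSeq annotation the members formed 8 pairs of neighbours: GBP2 and GBP1, IFIT2 and IFIT3, IFIT3 and IFIT1, IFITM5 and IFITM1, MX2 and MX1, OAS2 and OAS1, RSAD2 and CMPK2, and STAT3 and STAT5A. Both genes of the MX, OAS and RSAD2 pairs and all 3 IFIT genes were among the 19 that followed the full order of animals. MX2, the second MX GTPase, read 7.62, 8.03 and 7.72 in DMD KO at 3 months, 7.71, 8.97 and 7.28 in WT at 3 months, 7.39, 8.51, 7.05 and 8.45 in DMD KO at 2 days, and 7.01, 7.13 and 8.65 in WT at 2 days. OAS1, a second oligoadenylate synthetase, read 7.15, 7.67 and 7.03 in DMD KO at 3 months and 7.40, 7.61 and 6.98 in WT at 3 months. The levels at 2 days were 7.06, 7.62, 6.64 and 7.83 in DMD KO and 6.33, 7.22 and 7.47 in WT. CMPK2, a mitochondrial nucleotide kinase, read 6.79, 6.45 and 6.31 in DMD KO at 3 months, 6.73, 7.05 and 6.79 in WT at 3 months, 6.67, 7.10, 6.51 and 6.95 in DMD KO at 2 days, and 6.64, 6.34 and 7.12 in WT at 2 days, a narrower spread than that of its neighbour RSAD2. IFIT, OAS, MX and GBP genes have close relatives whose transcripts a probe set can share, so which gene of a pair carried a level remains uncertain. The other probe set of MX1 had the same order of animals, at 6.85, 8.35, 6.70 and 8.48 in DMD KO and 6.86, 6.89 and 7.63 in WT at 2 days.

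At 2 days, DMD KO minus WT asks whether the families already differed in newborn muscle without dystrophin. HERC2 and IRF2 rose, and the induced set lay mostly higher in DMD KO with no member passing the test. With limma's moderated test and Benjamini-Hochberg adjustment over all probe sets, 2 of 42 members were called (4.76%, both higher). Of all probe sets 9.93% were called and 7.09% called higher. Of the induced set 0 of 27 were called by limma, 2 (IFIT1 and IFIT2) had an unadjusted p under 0.05, as 27.9% of all probe sets did, and 10 were called in the fit with array weights described below. The share of members called was thus below the background share. Among marker lists of other cell types, 0 of 12 for macrophages and 0 of 10 for T and NK cells were called by limma at 2 days, with 1 and 0 at an unadjusted p under 0.05. In the lists of B and plasma cells and of endothelium JCHAIN rose by 0.998 and TEK by 0.65 (adjusted p = 0.00210 and 0.0461). Without WT replicate 3 the differences were 0.97 for JCHAIN (adjusted p = 0.00815) and 0.41 for TEK (adjusted p = 0.179). Of the 3 muscle fibre markers MYH7 rose by 1.67 (adjusted p = 0.00816) and MYH1 fell by 0.91 (adjusted p = 0.00615). The mean level of the 3 muscle fibre markers was 11.89, 11.96 and 11.64 in DMD KO and 11.96, 12.25 and 11.62 in WT at 3 months, and 11.63, 11.79, 11.52 and 11.78 in DMD KO and 11.57, 11.40 and 11.31 in WT at 2 days. Like the induced set it was highest in replicate 2 of both groups at 3 months and higher in DMD KO replicates 2 and 4 than in 1 and 3 at 2 days, but it was lowest in WT replicate 3 at 2 days. The part of these cell types in the members' levels was not tested.

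IRF2, the transcription factor that competes with IRF1 at its sites, read 7.58, 7.60 and 7.80 in DMD KO at 3 months and 7.50, 7.74 and 7.65 in WT at 3 months. Animals of 2 days had 7.72, 7.85, 7.80 and 7.99 in DMD KO and 7.46, 7.35 and 7.39 in WT. All 4 DMD KO animals at 2 days lay above all 3 WT animals, and IRF2 rose by 0.44 ± 0.09 (SE, adjusted p = 0.0129). Without WT replicate 3 it was higher by 0.43 (adjusted p = 0.0381). HERC2, a very large ubiquitin ligase with a part in DNA repair, read 7.95, 7.9958 and 8.18 in DMD KO at 3 months and 8.08, 7.84 and 7.95 in WT at 3 months. In newborns of 2 days it read 8.40, 8.30, 8.27 and 8.43 in DMD KO and 8.05, 7.95 and 7.61 in WT. The groups at 2 days did not overlap and HERC2 rose by 0.48 ± 0.11 (SE, adjusted p = 0.0203), but without WT replicate 3 the difference was 0.35 (adjusted p = 0.0719) and without DMD KO replicate 4 it had an adjusted p of 0.0617. HERC1, the related giant ligase, had a difference of 0.46 (adjusted p = 0.127) with no overlap between the groups, and of 0.22 (adjusted p = 0.515) without WT replicate 3. IRF2BP1, a corepressor that binds IRF2, read 7.52, 7.49 and 7.46 in DMD KO at 3 months and 7.55, 7.77 and 7.64 in WT at 3 months. Its 2-day levels were 7.63, 7.26, 7.37 and 7.40 in DMD KO and 7.81, 7.60 and 7.94 in WT. Its difference at 2 days was -0.36 (adjusted p = 0.0505), just above the threshold of 0.05, and -0.29 (adjusted p = 0.196) without WT replicate 3.

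Within the induced set 23 of 27 differences at 2 days were above 0, with a median of 0.30, against 46.3% of all probe sets above 0 and a median of -0.02. The median of the 27 was 0.51 without WT replicate 3, and 0 of them were called by limma. The highest were those of IFIT1 at 1.43 (95% interval 0.09 to 2.77, adjusted p = 0.155), HERC5 at 1.37 (-0.51 to 3.25, adjusted p = 0.315), OAS2 at 1.32 (-0.05 to 2.68, adjusted p = 0.193), IFIT2 at 1.07 (0.20 to 1.94, adjusted p = 0.109) and EIF2AK2 at 1.07 (-0.07 to 2.21, adjusted p = 0.205). In each the genotypes overlapped: WT replicate 3 lay above DMD KO replicates 1 and 3 in IFIT1, HERC5, OAS2 and EIF2AK2, and above DMD KO replicate 1 in IFIT2. IFIT2, which binds AU-rich RNA, read 7.03, 6.81 and 6.71 in DMD KO at 3 months and 7.03, 7.98 and 6.53 in WT at 3 months. At 2 days its level was 7.29, 7.83, 7.57 and 9.07 in DMD KO and 6.49, 6.80 and 7.32 in WT. Without WT replicate 3 the differences were 1.94 for IFIT1, 2.10 for HERC5, 2.00 for OAS2, 1.29 for IFIT2 and 1.32 for EIF2AK2, with adjusted p between 0.0809 and 0.265. Other arrays moved them the other way. Without WT replicate 1 at 2 days they were 0.99 for IFIT1, 0.78 for HERC5, 0.90 for OAS2, 0.88 for IFIT2 and 0.62 for EIF2AK2. Without DMD KO replicate 4 HERC5 had a difference of 0.89 and IFIT2 of 0.69. Their size thus rests on single animals in both genotypes.

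With weights estimated per array, 14 members were called at 2 days, 13 of them higher, against 24.8% of all probe sets. The 10 induced ones were EIF2AK2, HERC5, IFI44, IFIT1, IFIT2, IFIT3, IRF9, OAS1, OAS2 and STAT2. In that fit WT replicates 1, 2 and 3 at 2 days had weights of 4.73, 0.636 and 0.191. Among these WT animals the mean level of the induced set was lowest in replicate 1 (6.83) and highest in replicate 3 (7.74). Without weights and without WT replicate 3, 0 of the 27 induced members were called. Which weights brought the calls was not tested, and the estimation of the weights stopped before it had converged. The lowest differences at 2 days without weights were those of PARPBP at -0.47 (adjusted p = 0.262), IRF2BP1, IFITM5 at -0.17 (adjusted p = 0.499), DHX58 at -0.10 (adjusted p = 0.487) and PARP11 at -0.08 (adjusted p = 0.861). PARPBP, named for its binding to PARP1, is dim, below the 25th percentile of all arrays at a mean of 5.33, and read 5.42, 5.09 and 5.91 in DMD KO at 3 months, 5.67, 4.68 and 5.08 in WT at 3 months, 5.07, 4.88, 5.57 and 5.08 in DMD KO at 2 days, and 5.52, 6.07 and 5.28 in WT at 2 days. PARP11, an induced ADP-ribosyltransferase, read 7.44, 7.59 and 7.55 in DMD KO at 3 months and 8.21, 8.17 and 7.23 in WT at 3 months. The levels at 2 days were 7.17, 7.65, 6.96 and 7.66 in DMD KO and 7.41, 7.77 and 7.14 in WT. DMD KO replicates 2 and 4 were again the higher ones at 2 days, though WT replicate 2 lay above both. IFITM5 read 7.47, 7.73 and 7.55 in DMD KO at 3 months, 7.49, 7.89 and 7.62 in WT at 3 months, 7.62, 7.29, 7.75 and 7.50 in DMD KO at 2 days, and 7.54, 7.50 and 8.10 in WT at 2 days. DHX58, the RNA helicase LGP2 that tunes the IFIH1 sensor, read 7.56, 7.52 and 7.56 in DMD KO at 3 months, 7.48, 7.56 and 7.59 in WT at 3 months, 7.48, 7.55, 7.58 and 7.56 in DMD KO at 2 days, and 7.50, 7.56 and 7.87 in WT at 2 days. None of these 5 differences passed the test.

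At 3 months the comparison between genotypes gave another picture: IFI30, PARP8 and STAT3 rose in DMD KO muscle, and the antiviral members did not pass the test. Of 42 members 3 were called (7.14%, all higher), 1 of them in the induced set. Of all probe sets 5.98% were called and 4.62% called higher. IFI30, the lysosomal thiol reductase that prepares antigens for presentation on MHC class II, read 8.64, 9.00 and 9.49 in DMD KO at 3 months and 7.72, 8.0002 and 7.27 in WT at 3 months. Animals of 2 days had 7.70, 7.82, 7.68 and 7.79 in DMD KO and 7.61, 7.44 and 7.72 in WT. The DMD KO animals at 3 months lay above every other animal, and IFI30 rose by 1.38 ± 0.20 (SE, adjusted p = 0.00158), a fold of 2.6. At 2 days its difference was 0.16 (adjusted p = 0.612), and the genotype differences at the 2 ages themselves differed by 1.22 ± 0.28 (SE, adjusted p = 0.0250).

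PARP8, an ADP-ribosyltransferase outside the interferon-induced members of its family, read 8.56, 8.62 and 9.23 in DMD KO at 3 months and 7.66, 7.12 and 7.03 in WT at 3 months. In newborns of 2 days it read 7.26, 7.43, 7.90 and 7.52 in DMD KO and 7.09, 7.54 and 6.98 in WT. It rose by 1.53 ± 0.23 (SE, adjusted p = 0.00170) at 3 months, with no overlap, against a difference of 0.32 (adjusted p = 0.344) at 2 days and an interaction of 1.21 ± 0.31 (SE, adjusted p = 0.0455). STAT3, the transcription factor downstream of interleukin-6 and its relatives, read 8.77, 8.82 and 8.98 in DMD KO at 3 months and 8.43, 8.39 and 8.08 in WT at 3 months. Its 2-day levels were 8.34, 8.37, 8.43 and 8.45 in DMD KO and 8.26, 8.34 and 7.94 in WT. It rose by 0.56 ± 0.12 (SE, adjusted p = 0.0181) at 3 months without overlap, and its interaction was 0.34 (adjusted p = 0.367). Without DMD KO replicate 3 or WT replicate 3 of that age the adjusted p for STAT3 was 0.0878 and 0.0850, and on the arrays of these 2 groups alone it was 0.0601. Its other probe set rose by 0.96 at 3 months (adjusted p = 0.00426) and had an interaction of 0.98 (adjusted p = 0.0266), so the interaction of STAT3 was called on 1 of its 2 probe sets.

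**Figure D4:**
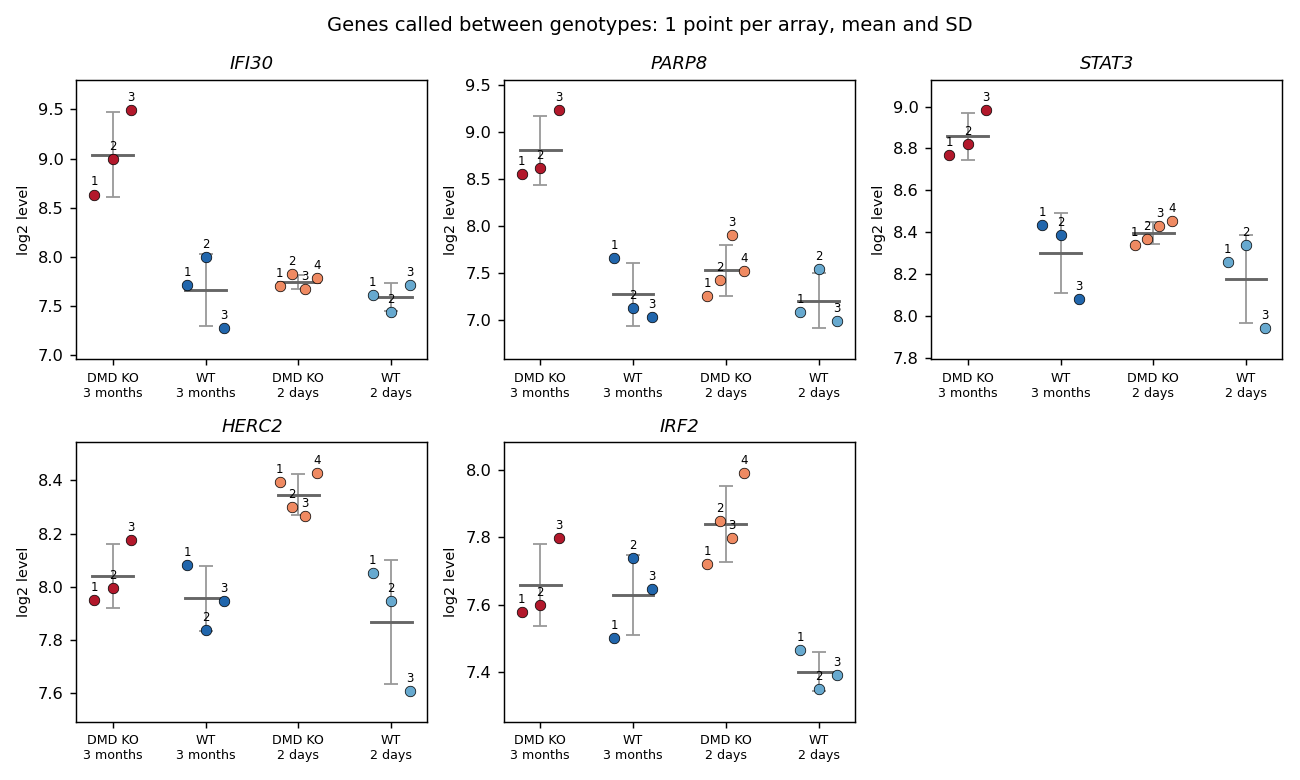
Deposited log2 levels (vertical axis) of IFI30, PARP8, STAT3, HERC2 and IRF2, the members called in a comparison, on each array by group (horizontal axis), 1 point per animal with the group mean and SD. IFI30 and PARP8 are high in the 3 DMD KO animals at 3 months, at 8.56 or more, and HERC2 and IRF2 in the 4 DMD KO animals at 2 days.

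Macrophage genes moved with IFI30. Of 12 measured macrophage markers 8 rose in DMD KO at 3 months (66.7%), against 4.62% of all probe sets called higher. The median difference was 0.81 over the 12 and -0.05 over all probe sets. LYZ (lysozyme) differed by 3.54, VSIG4 (a complement receptor) by 2.51, MRC1 (the mannose receptor) by 2.28 and FCER1G (an Fc receptor subunit) by 2.12. The mean level of the 12 was 8.14 to 8.73 in DMD KO and 7.14 to 7.47 in WT at 3 months, and 7.28 to 7.38 in DMD KO and 7.19 to 7.39 in WT at 2 days, where none was called. CSF1R, C1QA, ITGAM and MARCO of that list did not pass the test at 3 months. Markers of T and NK cells gave 0 of 10 called at 3 months by limma, against 5.98% of all probe sets, with 1 at an unadjusted p under 0.05. The part of such cells in the levels of IFI30, PARP8 and STAT3 was not tested.

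The induced set as a whole did not lie higher in DMD KO at 3 months: 10 of 27 differences were above 0 and 17 below, with a median of -0.10. Over all probe sets 41.1% were above 0 and the median was -0.05. The lowest differences among the members were IFIT1 at -0.71 (95% interval -2.14 to 0.72, adjusted p = 0.576), GBP1 at -0.55 (-1.57 to 0.46, adjusted p = 0.538), RSAD2 at -0.52 (-1.57 to 0.54, adjusted p = 0.578), PARP11 at -0.34 (-0.91 to 0.23, adjusted p = 0.503) and CMPK2 at -0.34 (-0.79 to 0.11, adjusted p = 0.401). These intervals leave room for changes of 1 log2 unit or more in IFIT1, GBP1 and RSAD2, and single WT animals at 3 months decided their size. Without WT replicate 3 the differences were -1.30, -0.89 and -0.88 for IFIT1, GBP1 and RSAD2. Without WT replicate 2 IFIT1 had -0.11 and RSAD2 -0.03, and without WT replicate 1 GBP1 had -0.18. With array weights IFIT1 read 0.0056, GBP1 -0.10 and RSAD2 -0.10. GBP1 read 7.02, 7.12 and 6.58 in DMD KO at 3 months and 8.22, 7.37 and 6.79 in WT at 3 months. At 2 days its level was 6.82, 8.11, 6.47 and 8.40 in DMD KO and 6.56, 6.67 and 7.00 in WT. At 3 months its highest animal was WT replicate 1, not the WT replicate 2 that led IFIT1 and RSAD2. STAT2, the transcription factor that carries the type I response, read 7.57, 7.97 and 7.78 in DMD KO at 3 months and 7.46, 7.72 and 7.14 in WT at 3 months. The levels at 2 days were 7.42, 7.94, 7.34 and 8.10 in DMD KO and 7.14, 7.39 and 7.67 in WT. Its difference at 3 months was 0.34 (adjusted p = 0.432). PARP2, which is recruited to DNA strand breaks, read 10.39, 10.53 and 10.54 in DMD KO at 3 months and 10.37, 9.52 and 9.91 in WT at 3 months. Animals of 2 days had 10.46, 10.56, 10.49 and 10.69 in DMD KO and 10.40, 10.52 and 9.46 in WT. Its DMD KO animals at 3 months lay just above the WT animals, with a difference of 0.55 (adjusted p = 0.254).

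**Figure D5:**
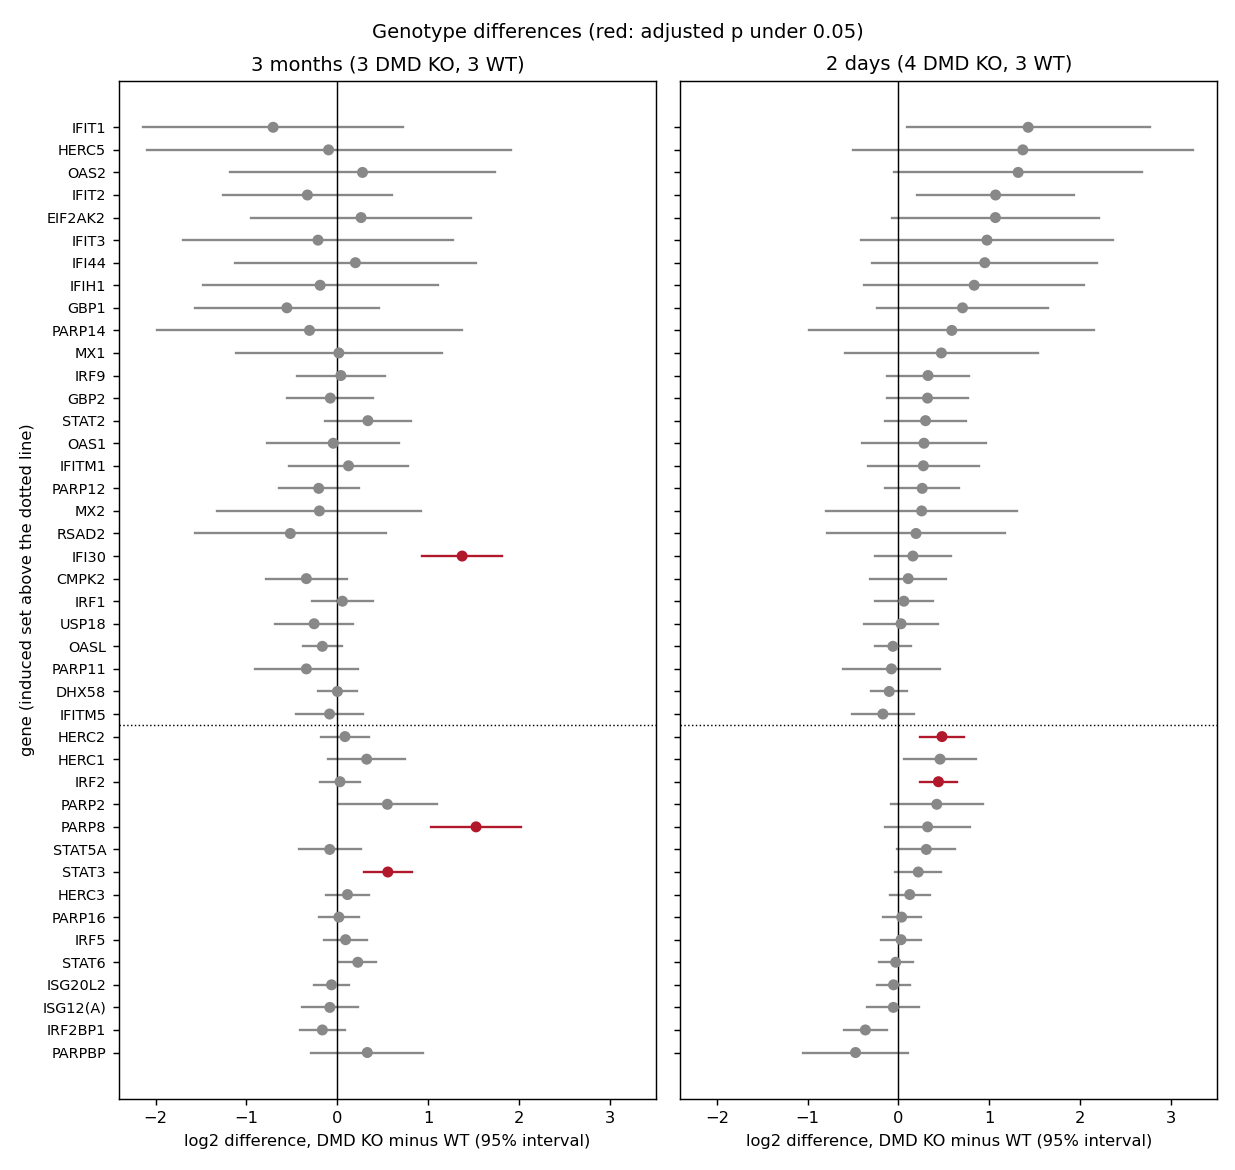
DMD KO minus WT log2 differences (horizontal axis) with 95% intervals for the 42 members (rows), at 3 months on the left and at 2 days on the right, called members marked. The intervals of the induced set are wide and mostly include 0 at both ages. Those of the called IFI30 (1.38), PARP8 (1.53) and STAT3 (0.56) at 3 months and HERC2 (0.48) and IRF2 (0.44) at 2 days exclude it. The intervals, which are not adjusted for the number of tests, also exclude 0 for uncalled members. These are PARP2 and STAT6 at 3 months and HERC1, IRF2BP1, IFIT1 and IFIT2 at 2 days.

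The age comparisons use the same animals as the genotype comparisons, so their values are not independent of those above. In DMD KO, 3 months minus 2 days, 3 of 42 members were called, all higher, against 8.04% of all probe sets called and 4.47% called higher. They were again IFI30, higher by 1.29 (adjusted p = 0.00107), PARP8, higher by 1.28 (adjusted p = 0.00243), and STAT3, higher by 0.46 (adjusted p = 0.0266). STAT3 lost its call, with adjusted p between 0.0510 and 0.113, without DMD KO replicate 2 or 3 at 3 months or any 1 of the 4 DMD KO animals at 2 days. Its other probe set also differed by 0.46 but was not called (adjusted p = 0.104). IFIT2 was lower by 1.09 at 3 months without overlap (adjusted p = 0.138), and STAT6, the transcription factor of the interleukin-4 response, read 7.89, 8.05 and 7.75 in DMD KO at 3 months and 7.64, 7.73 and 7.64 in WT at 3 months. In newborns of 2 days it read 7.73, 7.62, 7.72 and 7.60 in DMD KO and 7.63, 7.76 and 7.71 in WT. At 3 months minus 2 days in DMD KO it differed by 0.23 (adjusted p = 0.157). Between the genotypes at 3 months STAT6 also differed by 0.23 (adjusted p = 0.207), without overlap in either comparison. Of the induced set 8 of 27 differences were above 0 and 19 below, with a median of -0.16, against 45.8% of all probe sets above 0.

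In WT, 3 months minus 2 days, 0 of 42 members were called by limma, against 2.89% of all probe sets. IRF2 alone (0.23) had an unadjusted p under 0.05, as 12.9% of all probe sets did. PARP2 alone was called with array weights, a fit that called 11.7% of all probe sets. The induced set lay above 0 in 24 of 27 members, against 47.7% of all probe sets, with a median of 0.32. The highest were HERC5 at 1.43 (95% interval -0.57 to 3.44), PARP14 at 1.18 (-0.49 to 2.86) and IFIT1 at 1.17 (-0.26 to 2.60). WT replicate 2 at 3 months was the highest WT animal in all 3 genes, and WT replicate 3 of that age lay below the highest WT animal at 2 days. Without WT replicate 3 at 2 days, the HERC5 difference was 2.16 (adjusted p = 0.304).

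The interaction asks whether the difference between genotypes was itself different at 3 months, and takes the 2-day difference away from the 3-month one. It was called in 2 of 42 members, IFI30 and PARP8, both above 0. Of all probe sets 5.05% were called and 3.06% above 0. Without WT replicate 3 at 2 days the values were 1.15 for IFI30 (adjusted p = 0.0447) and 1.32 for PARP8 (adjusted p = 0.0373). The call of IFI30 was lost (adjusted p up to 0.0569) without DMD KO replicate 2 or WT replicate 3 at 3 months, or DMD KO replicate 1 or 3 at 2 days. That of PARP8 was lost (adjusted p up to 0.115) without DMD KO replicate 2 or 3 or WT replicate 2 or 3 at 3 months, or DMD KO replicate 1, 2 or 4 or WT replicate 1 or 2 at 2 days. In the induced set 4 of 27 interactions lay above 0 and 23 below, with a median of -0.45, against 47.7% of all probe sets above 0. The lowest were IFIT1 at -2.14 (95% interval -4.09 to -0.18, adjusted p = 0.256), HERC5 at -1.47 (-4.21 to 1.28, adjusted p = 0.696), IFIT2 at -1.40 (-2.67 to -0.13, adjusted p = 0.249) and GBP1 at -1.26 (-2.65 to 0.13, adjusted p = 0.380).

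Other genes of the pathway, which sense nucleic acid or carry the interferon signal, were listed by 37 symbols, and 19 genes were measured. The symbols include older and newer names of the same gene (TMEM173 and STING1, MB21D1 and CGAS) and LGP2, which is the member DHX58. The number of distinct genes listed was thus below 37. At 2 days 3 of the 19 rose in DMD KO (15.8%), against 7.09% of all probe sets called higher, and with so few genes the share is no result about the list. JAK1, the kinase shared by the interferon receptors, read 9.69, 9.73 and 10.14 in DMD KO at 3 months and 9.62, 9.09 and 9.24 in WT at 3 months. Its 2-day levels were 10.07, 10.06, 10.37 and 10.46 in DMD KO and 9.36, 9.23 and 8.87 in WT. At 2 days it rose by 1.09 (adjusted p = 0.00244), with every DMD KO animal at 2 days above every WT animal. TRAF6, an adaptor ligase downstream of Toll-like receptors, rose by 0.79 (adjusted p = 0.0103), and MAVS, the mitochondrial adaptor of the RNA sensors, by 0.37 (adjusted p = 0.0237). These differences were 0.95 for JAK1, 0.60 for TRAF6 and 0.39 for MAVS without WT replicate 3 (adjusted p = 0.00994, 0.0347 and 0.0434). At 3 months 2 of the 19 rose (10.5%, against 4.62% of all probe sets): MYD88, an adaptor of Toll-like receptors, by 0.48 (adjusted p = 0.0266), and TLR7, a sensor of single-stranded RNA, by 0.43 (adjusted p = 0.0367). None of the 19 fell in either comparison. The full order of animals seen in the induced set held in 1 of these 19 genes (5.26%).

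A further list held 56 genes known to be induced by interferon. Leaving out IFITM1, which is already a member, 26 of them were measured. The full order of animals held in 10 of the 26 (38.5%), against 2.37% of all probe sets. CXCL10, a chemokine that draws T cells, read 6.49, 7.79 and 6.44 in DMD KO at 3 months and 8.19, 9.82 and 5.66 in WT at 3 months. At 2 days its level was 5.37, 8.30, 5.41 and 9.09 in DMD KO and 5.28, 4.95 and 6.21 in WT. As for IFIT1, DMD KO replicates 2 and 4 and WT replicate 3 were the high animals at 2 days. At 3 months 0 of the 26 were called by limma, against 5.98% of all probe sets, and 0 had an unadjusted p under 0.05. At 2 days PSME1, a proteasome activator subunit, rose in DMD KO by 0.72 (adjusted p = 0.0459) and NUB1, which lowers ubiquitin-like proteins, by 0.48 (adjusted p = 0.0335). These were 2 of 26 (7.69%), near the 7.09% of all probe sets called higher, so the share is no result about the list. PSME1 had a difference of 0.65 (adjusted p = 0.154) and NUB1 of 0.57 (adjusted p = 0.0345) without WT replicate 3. At 3 months relative to 2 days in WT, B2M, the light chain of MHC class I, rose by 1.20 (adjusted p = 0.0218) and TDRD7 by 1.17 (adjusted p = 0.0274), with adjusted p of 0.0388 and 0.0416 without WT replicate 3 at 2 days. These were 2 of 26 (7.69%), against 2.89% of all probe sets called in either direction, too few genes for a result about the list.

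The remaining members are given by their range. USP18, which takes ISG15 off proteins and damps receptor signalling, OASL, GBP2, PARP12, IRF1, IRF9 and IFITM1 had no adjusted p under 0.05 in any of the 5 comparisons. IRF9, the DNA-binding partner of STAT2, averaged 8.07 ± 0.13 in DMD KO and 8.03 ± 0.23 in WT at 3 months (SD, n = 3 each), and 8.22 ± 0.40 in DMD KO (SD, n = 4) and 7.90 ± 0.33 in WT (SD, n = 3) at 2 days. IFI44 averaged 8.18 ± 0.27 in DMD KO and 7.98 ± 1.06 in WT at 3 months (SD, n = 3 each), and 8.35 ± 1.02 in DMD KO (SD, n = 4) and 7.40 ± 0.83 in WT (SD, n = 3) at 2 days. ISG12(A), ISG20L2, HERC3, PARP16, IRF5 and STAT5A, members by name, also stayed without a call. On the probe sets that represented them, their differences lay between -0.39 and 0.31 in the 5 comparisons. The other probe set of HERC3 was higher in DMD KO by 0.33 at 3 months (adjusted p = 0.0720) and by 0.20 at 2 days (adjusted p = 0.179). Its genotypes did not overlap at either age, and it was not called.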

How the data were processed

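RNA of 13 biceps femoris samples, extracted with Trizol per the labels' protocols, was measured on 1-colour whole-transcript arrays. The authors deposited log2 levels, from 2.81 to 13.8, for 21893 probe sets on each array. The log base was inferred from these values. Affymetrix Power Tools was used per the submitters' processing notes, and the sources used here give neither its version nor the summary method or normalization. Values were used as deposited, without a filter. The annotation of the array named 11028 probe sets by 1 symbol, 418 by several and 10447 by none, with 5 symbols updated, and all 42 members matched the RefSeq table of Sscrofa11.1.

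The 4 groups were fitted together over all probe sets by lmFit and eBayes of limma 3.58.1 (R 4.3.3), with 9 residual degrees of freedom, after tests on simulated data. The 5 contrasts were 2-sided, adjusted by Benjamini-Hochberg over all 21893 probe sets and called at an adjusted p under 0.05. Members, gene lists and tests were chosen with earlier results of these data known. Values in every array were given for each called member and for the 5 highest and the 5 lowest differences of a contrast. Other members named with values, and the counts of the order of animals, were chosen after the values were seen. Arrays give no counts, so their number limits the precision. Alternatives were fits on the 2 groups compared, trended robust eBayes, quantile normalization, median centring, a filter at the 25th percentile, array weights, a replicate block, the mean of a gene's probe sets and leaving out each array. Replicate numbers paired no samples: over 12 same-numbered pairs of arrays the correlation of deviations ran from -0.495 to 0.330.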

Additional observations from a re-analysis of the deposited data

Results flagged for a closer look

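The genotype difference of 2 members differed between the ages, by limma's test of the interaction with Benjamini-Hochberg adjustment. For IFI30 the DMD KO minus WT difference was 1.38 at 3 months and 0.16 at 2 days, an interaction of 1.22 (adjusted p = 0.0250, and 0.0106 to 0.0569 when single arrays were left out). For PARP8 it was 1.53 at 3 months and 0.32 at 2 days, an interaction of 1.21 (adjusted p = 0.0455, and 0.0234 to 0.115 when single arrays were left out). In 42 tests, 1 per member over the 4 DMD KO animals at 2 days, 0 found a single animal far from the others. That test looks for 1 distant animal and cannot find 2 high ones against 2 lower ones, the order that most induced members showed.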

How the results depend on the processing

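The counts of members called changed most with array weights. For DMD KO minus WT they were 5 at 3 months and 14 at 2 days, against 15.6% and 24.8% of all probe sets. For the age comparisons they were 6 in DMD KO and 1 in WT, against 17.1% and 11.7%. The interaction was called in 4, against 12.6%. The share called over all probe sets thus rose in this fit too. At 2 days the count was 1 when only the arrays of both groups were fitted, where HERC2 had an adjusted p of 0.0590. The replicate block gave 0 at 2 days and 0 for the interaction, against 3.36% and 2.65% of all probe sets. Median centring gave 1 for the interaction, where PARP8 had an adjusted p of 0.0539. The share of all probe sets called was not counted with median centring or on both groups alone. Those counts are thus no result about the members as a set. Under the replicate block STAT3 also lost its calls at 3 months and for age in DMD KO (adjusted p = 0.0589 and 0.0887), and on both groups alone that at 3 months (0.0601). Leaving out single arrays gave 2 to 3 members at 3 months and 1 to 4 at 2 days. Of all probe sets 3.21% to 9.3% and 5.22% to 14.7% were called there. For age the counts were 2 to 3 in DMD KO and 0 to 0 in WT, against 5.39% to 10.5% and 1.68% to 3.46%. For the interaction the count was 0 to 2, against 3.6% to 5.78%. At 2 days 1 was called without DMD KO replicate 4 or WT replicate 3, against 5.22% and 5.53% of all probe sets. Without WT replicate 2 it was 4, against 14.7%. The interaction had 0 called without DMD KO replicate 2 or WT replicate 3 at 3 months, or without DMD KO replicate 1 at 2 days. Of all probe sets 3.65%, 3.6% and 3.87% were called in these fits. Median differences over the members moved by less than 0.389, the largest within-group SD of the members' mean level. That measure was larger than the medians themselves, so it could hardly be exceeded and says little about their stability. At 3 months the median of -0.02 ran from -0.15 to 0.11 with single arrays left out. It reached 0.18 in the other settings, and so has no settled sign.

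Uncalled members changed sign. With array weights IFIT1, at -0.71 without them, read 0.0056 at 3 months, DHX58 0.020 at 2 days and 0.046 for age in WT, and IFITM5 0.11 for age in WT. With single arrays left out, DHX58 ran from -0.17 to 0.011 at 2 days and from -0.17 to 0.014 for age in WT, IFITM5 from -0.28 to 0.020 and from -0.15 to 0.15, PARP11 from -0.23 to 0.086 at 2 days, PARP2 from -0.53 to 0.010 for age in WT, and PARP14 from -0.15 to 0.68 for age in DMD KO. Beyond the effect of fewer arrays, the cause was not tested. With 3 or 4 animals a group, the spread of the induced set leaves intervals of more than 2 log2 units for HERC5, IFIT1 and PARP14, so changes of 1 unit in them were not detectable.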

Other observations

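CXCL9, a chemokine induced by type II interferon, stood apart from the order of the other induced genes. It read 5.31, 4.94 and 4.85 in DMD KO at 3 months, 7.16, 4.85 and 5.04 in WT at 3 months, 4.65, 5.10, 5.05 and 4.91 in DMD KO at 2 days, and 4.85, 4.75 and 4.64 in WT at 2 days. The single high animal, WT replicate 1 at 3 months, was also the one with the highest GBP1 of its group, at 8.22. IFIT1, HERC5 and CXCL10 were highest in WT replicate 2. So were GBP2 (6.27, 6.55 and 6.28) and IRF1 (7.03, 7.18 and 6.70), which type II interferon also favours, so GBP1 did not stand for these genes. CXCL9 and this comparison were chosen after the values were seen.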
